A study of Mus musculus with 10 samples.

Results

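The 10 genes described here encode splicing factors with a domain rich in serine and arginine (SR): Srsf1, Srsf2, Srsf3, Srsf5, Srsf6, Srsf7, Srsf9, Srsf10, Srsf11 and Tra2b. They were chosen by symbol and not by a measured value, though with earlier results of these data known, from the 13272 genes that had kept reads. They held 5640 of 2042110 kept reads. The study sequenced native poly(A) RNA molecules of wild-type P19 cells, a pluripotent mouse embryonal carcinoma line, on Nanopore flow cells and measured how long a poly(A) tail every molecule carried. The cells were undifferentiated and had received a pool of scrambled siRNAs (siCtl) or an siRNA against Larp1 (siLarp1), an RNA-binding protein that binds the cap and the poly(A) tail of TOP mRNAs. Each treatment had 3 libraries at 24 h and 2 at 48 h, the latter from cells transfected again at 24 h. A single siRNA was used against Larp1. The paper calls the replicates biological, but the labels do not say whether they came from separate cultures, so p-values measure the spread between these libraries. Libraries are named by the numbers 19, 21 and 22 (24 h) and 24 and 25 (48 h), which occur in both treatments.

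SR proteins bind short motifs in pre-mRNA through RNA recognition motifs and recruit the spliceosome to nearby splice sites. Kinases of the Clk and Srpk families phosphorylate the SR domain, and Tnpo3 carries the phosphorylated proteins into the nucleus. Many SR genes hold a poison exon, a conserved cassette exon with a stop codon in frame, whose inclusion makes a transcript that nonsense-mediated decay can remove. Several of these proteins also act on the choice of the 3′ end and on export of the mRNA.

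Larp1 reads were checked in every library. They made up 75.9 to 85.0 reads per 1000000 kept reads (RPM) in siCtl and 19.1 to 44.9 RPM in siLarp1 at 24 h, and 123 to 169 RPM against 18.5 to 24.9 RPM at 48 h. The mean log2 difference was -1.94 ± 0.36 (SE), with an adjusted p of 0.00113 (limma voom), on 3 to 36 reads per library. At 24 h alone the adjusted p was 0.63 and at 48 h alone 0.0871. All 8 markers of P19 cells had reads, with a sum of 3358 to 4553 RPM per library. In the 48 h libraries this sum was 3794 to 4125 RPM in siCtl and 4363 to 4553 RPM in siLarp1. Of 6 neuron markers, Neurod1 had no read and the sum was 196 to 369 RPM. Of 6 fibroblast or endoderm markers, Afp and Sox17 had no read and the others had 14 reads in all. Kept reads ranged from 112720 to 423398 per library. At 24 h they were 289738 to 423398 in siCtl and 119863 to 157054 in siLarp1, so depth differed with treatment. At 48 h the ranges of the treatments overlapped. The treatments were sequenced in separate barcoded pools at 24 h, so pool and treatment cannot be told apart at that time. The 48 h libraries shared 1 pool.

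The sequences below show the 3′ end sites of Srsf3, Tra2b and Srsf7, to which the poly(A) tails were attached, with the site of Srsf9 for contrast. Each is a run of 30 bases that ends at the site, 5′ to 3′, except that the run of the first Srsf7 site stops 2 bases before it. They were read from the GENCODE vM21 transcripts (build mm10), and all lie in 3′ UTRs. Capitals mark the hexamer AATAAA or ATTAAA, the letters that the cleavage machinery is known to read. The Srsf3 sites on chromosome 17 (plus strand) held 68.3%, 13.6%, 6.05% and 5.34% of its reads in the order shown. The Tra2b sites on chromosome 16 (minus strand) held 52.3%, 19.7%, 17.0% and 6.68%. The Srsf7 sites on chromosome 17 (minus strand) held 92.4% and 6.63%, and the Srsf9 site on chromosome 5 (plus strand) held 99.5%.
Srsf3 chr17:29042068-29042097: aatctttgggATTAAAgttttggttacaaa
Srsf3 chr17:29042222-29042251: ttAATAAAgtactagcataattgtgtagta
Srsf3 chr17:29042868-29042897: ctttaaacAATAAAtttcagtaaaaaagga
Srsf3 chr17:29041469-29041498: caggaaATTAAAgttttgtttgagacttca
Tra2b chr16:22245877-22245906: aAATAAAggcaagaaaaattgctgatgcaa
Tra2b chr16:22246462-22246491: caaaaagcaacAATAAAcaagtttgatttt
Tra2b chr16:22245753-22245782: caagataacATTAAAtctatttctcaaata
Tra2b chr16:22245810-22245839: tgttgtaATTAAAgtcctgtagtttattta
Srsf7 chr17:80201319-80201348: ttttatttgacacgtttaAATAAAatgttt
Srsf7 chr17:80200084-80200113: ttgttcAATAAAtctgcagagattgaacaa
Srsf9 chr5:115333051-115333080: gttcagaaatatattttaaatgtttagtaa

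The next sequences show where reading stops in poison exons of Srsf3, Srsf7 and Tra2b, each held by reads. Each is the end of the open stretch of the exon, up to 30 bases, with the stop codon annotated for the nonsense-mediated decay transcript in capitals. The Srsf3 exon spans chr17:29039454-29039909 (456 bases), the Srsf7 exon chr17:80204622-80205081 (460 bases) and the Tra2b exon chr16:22258986-22259261 (276 bases).
Srsf3 chr17:29039458-29039487: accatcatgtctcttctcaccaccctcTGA
Srsf7 chr17:80205054-80205081: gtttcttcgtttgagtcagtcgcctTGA
Tra2b chr16:22259181-22259210: aatgagtatttgaagctcaggaataagTGA

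The genes differed in level and in tail length. A read is 1 molecule, so levels were not divided by transcript length. Srsf3, a small SR protein that also acts in mRNA export, had the most reads (1405). Srsf2 had 983 reads, and Srsf7, which shuttles and carries a zinc knuckle, had 829. Tra2b, which binds purine-rich enhancers, had 524 reads. Srsf1 (406), Srsf6 (390), Srsf9 (383) and Srsf5 (297) followed. Srsf11 (224) and Srsf10 (199), the latter a repressor of splicing when dephosphorylated, had the fewest.

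Pooled over the 10 libraries, the median tails fell into a higher and a lower range. Srsf6 had the longest median tail, 128 nt (quartiles 88.2 and 179 nt). Srsf5 (124 nt), Srsf2 (121 nt), Srsf11 (120 nt), Srsf10 (118 nt) and Srsf9 (114 nt) came next. Tra2b (102 nt), Srsf1 (102 nt), Srsf7 (101 nt) and Srsf3 (101 nt) lay together at the median of all kept reads, 102 nt. Among 2612 genes with at least 100 reads, the median of gene medians was 103.5 nt, and the Srsf6 median exceeded that of 96.2% of these genes while the Srsf3 median exceeded that of 40.1%. The ranges of the library medians overlapped for every pair of neighbours in this order, while the range of Srsf6 (106.1 to 144 nt) lay just above that of Srsf3 (96.1 to 105.6 nt). Tails of 200 nt or more made up 11.3% of the reads of the 10 genes and 6.08% of all kept reads, with 21.5% in Srsf5 and 6.53% in Srsf9.

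**Figure D1:**
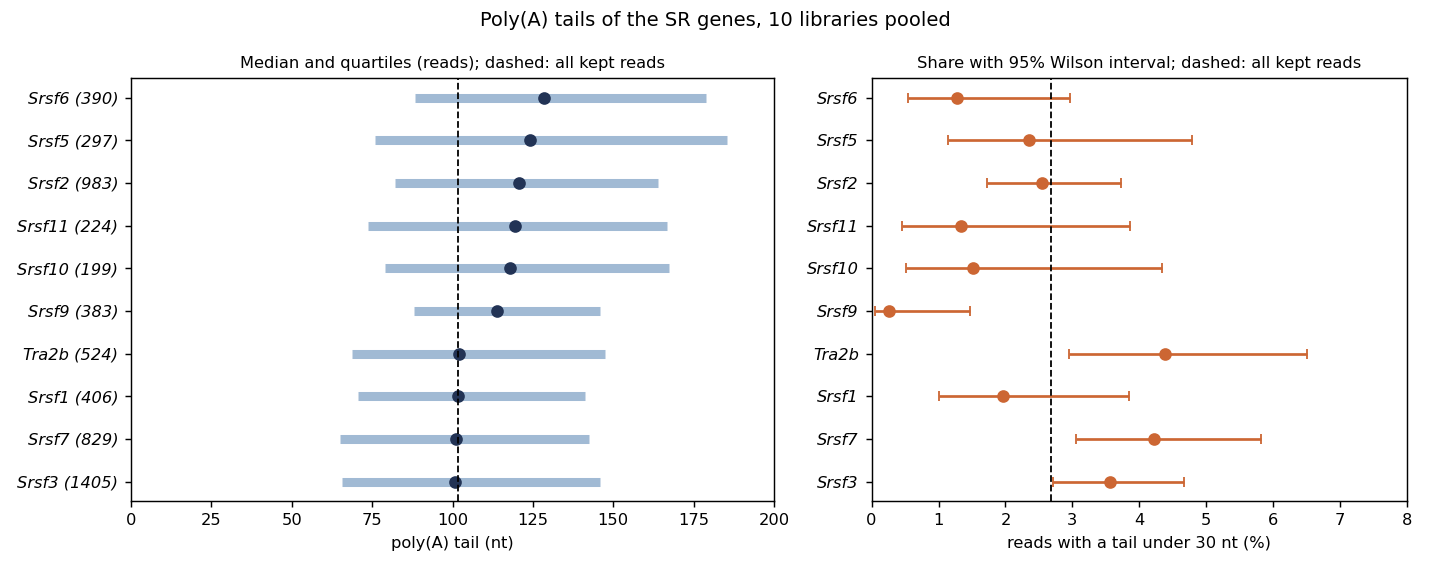
Poly(A) tails of the SR genes pooled over 10 libraries. Left, the median (point) and quartiles (bar) in nt, with read numbers in parentheses and a dashed line at 102 nt, the median of all kept reads. Right, the percent of reads with a tail under 30 nt and its 95% Wilson interval, with a dashed line at 2.68%, the share among all kept reads. Srsf6 lies highest on the left and Srsf9 lowest on the right.

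Short tails were unequally spread. The share of reads with a tail under 30 nt was 4.39% in Tra2b (95% Wilson interval 2.94 to 6.50%), 4.22% in Srsf7 (3.05 to 5.82%) and 3.56% in Srsf3 (2.71 to 4.66%). It was 0.261% in Srsf9, 1 read of 383 (0.0461 to 1.46%). The share among all kept reads was 2.68%. These intervals cover counting error only. The share with a tail of 30 to 90 nt ran from 24.9% in Srsf6 to 39.2% in Srsf1, beside 38.5% of all kept reads. Over the 10 genes, read number and median tail had a Pearson r of -0.47 and a Spearman rho of -0.50, given as a description of genes measured in the same libraries.

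The first comparison asked whether the level of SR genes differed between siLarp1 and siCtl. None of the 10 genes passed the test (limma voom, Benjamini-Hochberg adjusted p under 0.05) at 24 h, where 0% of 5858 genes did, or at 48 h, where 0.0341% did, or in the mean of both, where 0.154% did. At an unadjusted p under 0.05 there were 0 members at 24 h, 2 at 48 h and 0 in the mean, beside 5.82%, 4.93% and 6.18% of all genes tested. The median log2 difference of the 10 genes was -0.05 at 24 h and 0.26 at 48 h, beside 0.02 and 0.05 over all genes tested. At 48 h, 8 of the 10 estimates were above 0, and at 24 h 3 were.

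Srsf3 had 780, 633 and 716 RPM in the siCtl libraries 19, 21 and 22, and 651, 688 and 592 RPM in the siLarp1 libraries of these numbers. At 48 h it had 710 and 532 RPM in siCtl 24 and 25, and 870 and 655 RPM in siLarp1 24 and 25. The groups overlapped at both times. The log2 difference was -0.13 ± 0.13 (SE) at 24 h and 0.35 ± 0.18 at 48 h, with adjusted p of 0.95 and 0.94 (limma). Srsf10 had 131, 84.2 and 96.8 RPM in siCtl and 125, 59.8 and 76.4 RPM in siLarp1 at 24 h. At 48 h it had 71.0 and 61.6 RPM in siCtl and 123 and 141 RPM in siLarp1. Its 24 h groups overlapped and its 48 h groups did not, the latter on 8 to 20 reads per library. The log2 difference at 48 h was 0.97 ± 0.40, with an adjusted p of 0.94, and the difference between the times was 1.23 ± 0.50, with an adjusted p of 0.97 (limma). The Srsf10 level at 48 h was the largest estimate among the 10 genes.

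Srsf1, the splicing factor first found as an activator of splicing in extracts, had 195 and 229 RPM in siCtl and 302 and 274 RPM in siLarp1 at 48 h. These did not overlap, and the log2 difference was 0.42 ± 0.25 (adjusted p = 0.94, limma). At 24 h the siCtl values of Srsf1 were 166 to 190 RPM and the siLarp1 values 150 to 191 RPM. Srsf2 had 398 to 538 RPM in siCtl and 374 to 567 RPM in siLarp1 at 24 h, and 459 and 559 RPM against 537 and 647 RPM at 48 h. Srsf7 had 372 to 439 RPM in siCtl and 309 to 486 RPM in siLarp1 at 24 h, and its log2 difference in the mean of both times was -0.02 ± 0.14. At 48 h Srsf5 (124 and 134 RPM in siCtl, 141 and 210 RPM in siLarp1) and Srsf6 (177 and 179 RPM against 191 and 224 RPM) also had both siLarp1 values above both siCtl values. For Srsf5, Srsf6, Srsf9, Srsf11 and Tra2b the mean log2 differences lay between -0.07 (Srsf9) and 0.31 (Srsf5), with SE of 0.15 to 0.23.

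**Figure D2:**
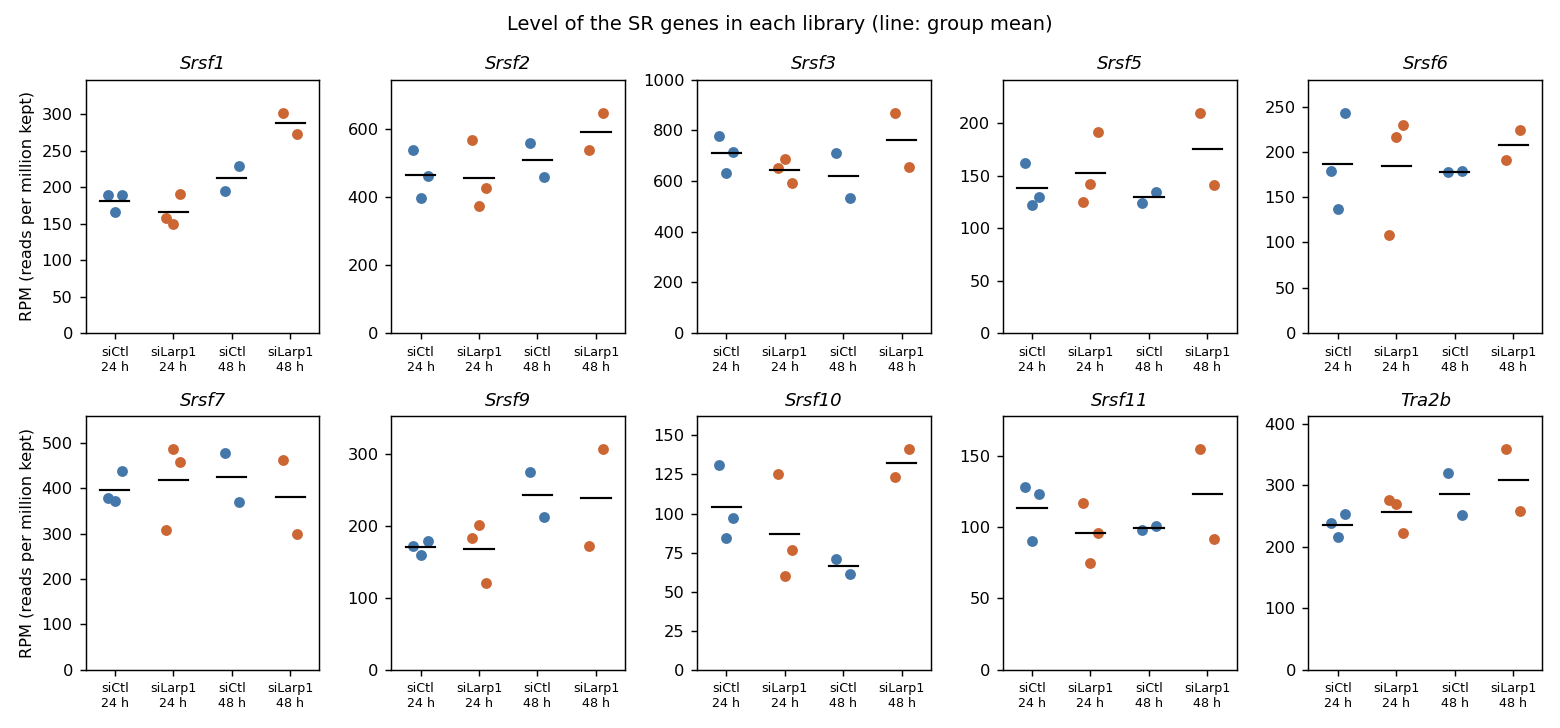
Level of each SR gene in RPM (vertical axis, from 0, with its own scale in each panel) in the 10 libraries. Points are libraries, blue for siCtl and orange for siLarp1, and lines are group means. The siLarp1 points of Srsf1, Srsf5, Srsf6 and Srsf10 at 48 h lie above both siCtl points, and those of the other 6 genes overlap. None of these genes passed the test of level, and the share of all genes that separate in this way is not given here.

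The second comparison asked whether tail lengths differed between siLarp1 and siCtl. The log2 median tail passed the test for none of the 10 genes at 24 h (0% of 5431 genes called), at 48 h (0% called) or in the mean of both (0.0184% called, limma). At an unadjusted p under 0.05 there were 0, 0 and 1 members, beside 5.86%, 5.82% and 5.95% of all genes. The median difference over the 10 genes was 0.03 in the mean of both times, beside 0.02 over all genes. Srsf3 was the most precisely measured, with median tails of 96.8, 102 and 106 nt in siCtl and 102, 98.8 and 99.0 nt in siLarp1 at 24 h. At 48 h its medians were 98.9 and 98.5 nt in siCtl and 96.1 and 98.0 nt in siLarp1. The groups overlapped at 24 h, and at 48 h both siLarp1 values lay below both siCtl values. The mean log2 difference of Srsf3 was -0.03 ± 0.06 (SE). Srsf10 gave the largest estimate, 0.34 ± 0.15 (adjusted p = 0.81, limma). Its median tails were 93.8, 93.3 and 119 nt in siCtl and 102, 129 and 128 nt in siLarp1 at 24 h, and 76.5 and 139 nt against 147 and 161 nt at 48 h. The 24 h groups overlapped and the 48 h groups did not. At 48 h both siLarp1 medians also lay above both siCtl medians in Srsf6 and Srsf7, and below them in Srsf9. Directions were thus mixed, and the share of all genes that separated in this way is not given here.

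**Figure D3:**
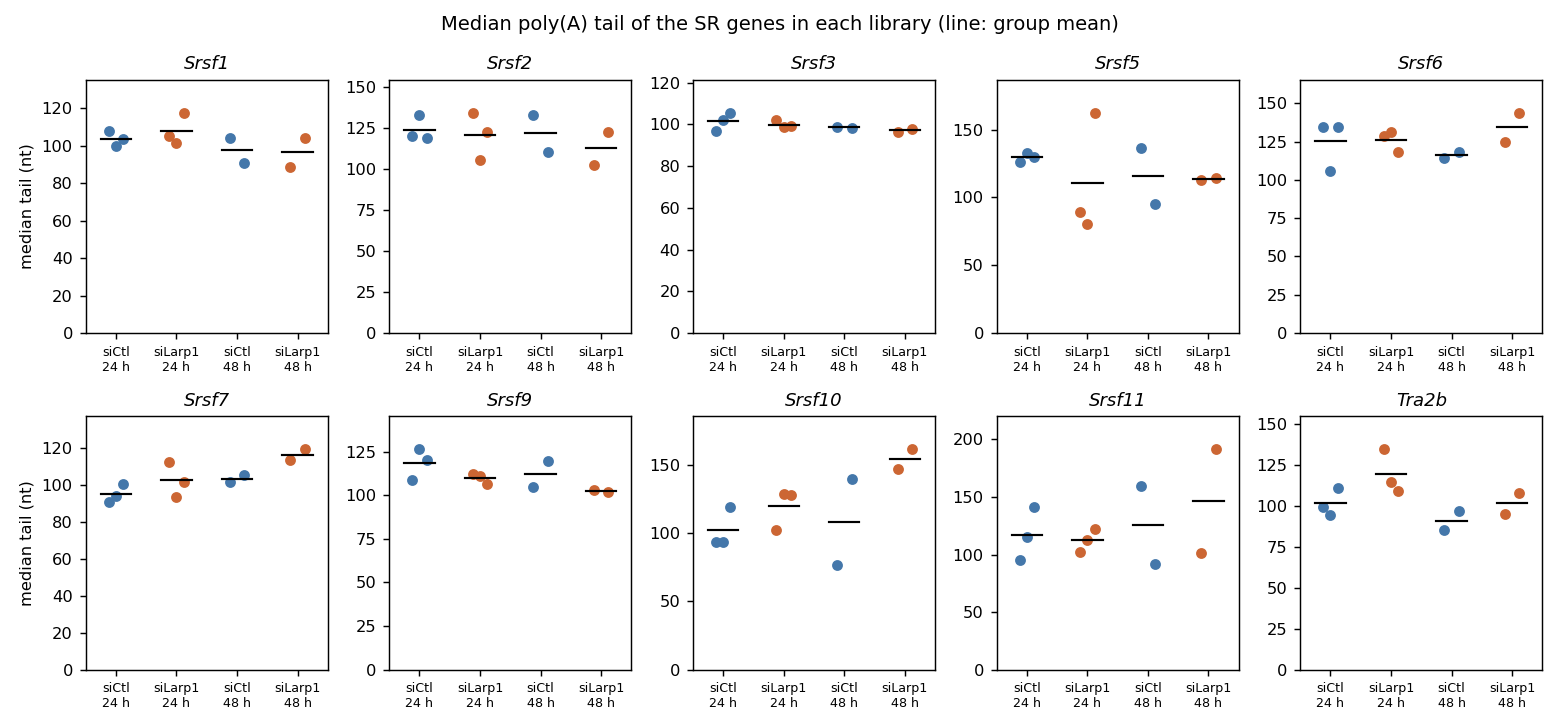
Median poly(A) tail in nt (vertical axis, from 0, with its own scale in each panel) of each SR gene in the 10 libraries. Points are libraries, blue for siCtl and orange for siLarp1, and lines are group means. Srsf3 lies between 96.1 and 106 nt in every library, while Srsf5, Srsf10 and Srsf11, which had fewer reads, spread widely.

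The share of tails under 30 nt is the class in which the study followed TOP mRNAs after loss of Larp1. None of the 10 SR genes passed the test for this share at 24 h (0% of 5431 genes called), at 48 h (0.0184% called) or in the mean (0.0368% called, limma). At an unadjusted p under 0.05 there was 1 member in each, beside 4.47%, 8.58% and 6.65% of all genes. Srsf2 had 1.28, 0 and 1.54% in siCtl and 5.88, 4 and 2.99% in siLarp1 at 24 h, where every siLarp1 value was above every siCtl value. At 48 h it had 3.17 and 7.32% in siCtl and 3.45 and 1.28% in siLarp1, which overlapped. The differences were 3.30 ± 1.37 and -3.09 ± 1.81 percentage points, with adjusted p of 1 and 0.77 (limma). Srsf3 had 3.54, 1.83 and 2.31% in siCtl and 1.28, 4.35 and 4.30% in siLarp1 at 24 h. At 48 h it had 5 and 1.05% in siCtl and 9.22 and 5.06% in siLarp1. Its mean difference was 2.87 ± 1.23 percentage points (adjusted p = 0.74, limma). Over the 10 genes, 8 of the mean differences were above 0, and how many of all genes lay above 0 is not given here. The median of the 10 was 0.645 percentage points, beside 0 over all genes. Over the 2611 genes with at least 100 reads, a minimum that all 10 members met, the median difference in this share was 0.36. Over all kept reads of a library, this share was 2.15 to 2.42% in siCtl and 2.63 to 3.22% in siLarp1 at 24 h, and 2.82 and 2.96% against 3.37 and 4.20% at 48 h, so it was higher in each siLarp1 library than in any siCtl library of its time. The count above 0 and the median were 81 of 81 and 1.61 percentage points for ribosomal protein genes, the main class of TOP mRNAs, and 8 of 20 and -0.106 for genes of hnRNP proteins, another family of splicing regulators. Of the ribosomal protein genes 1 passed the test.

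The share of tails of 30 to 90 nt passed the test for none of the 10 genes at 24 h (0.11% of 5431 genes called), at 48 h (0% called) or in the mean (0.129% called, limma). At an unadjusted p under 0.05 there were 1, 0 and 3 members, beside 5.52%, 5.43% and 5.73% of all genes. Tra2b had 40.6, 40.5 and 39.3% in siCtl and 21.2, 25 and 25.7% in siLarp1 at 24 h. The 24 h groups of Tra2b did not overlap. The difference was -16.0 ± 5.8 percentage points (adjusted p = 0.65, limma), in a comparison where pool and treatment cannot be told apart. At 48 h, within 1 pool, Tra2b had 47.2 and 40.0% in siCtl and 41.4 and 29.03% in siLarp1, which overlapped, with a difference of -6.13 ± 7.68. Srsf10 had a mean difference of -17.3 ± 8.3 and Srsf5 of 13.5 ± 6.5 percentage points, both with an adjusted p of 0.85. Over all genes the median difference was -1.73 percentage points, and over the 10 genes -2.80.

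The deposited alignments name a transcript for each read. The 10 genes had reads on 46 transcripts, 24 of them with at least 30 reads. Protein-coding transcripts held 92.3% of the reads, transcripts annotated for nonsense-mediated decay 3.19% and retained-intron transcripts 3.90%. Srsf6 (98.2% on ENSMUST00000130411.6), Srsf2 (95.7% on ENSMUST00000092404.12) and Tra2b (95.6% on ENSMUST00000161286.7) were dominated by a single coding transcript. Srsf3 (87.2% on ENSMUST00000130216.2) and Srsf9 (87.2% on ENSMUST00000031513.13) followed. The most-read transcript held 50.9% in Srsf7, 46.8% in Srsf5, 38.8% in Srsf11 and 38.2% in Srsf10. Reads that start late fit several transcripts equally well. Of Srsf2 reads 94.3% had a mapping quality of at least 10, but only 15.2% of Srsf11 reads, 28.96% of Srsf5 reads and 29.6% of Srsf10 reads did. No Srsf1 read did, and 193 of its reads were on transcripts without a structure in the annotation used here.

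Isoform usage, the percent of a gene's reads on a transcript, did not pass the test for any of 17 member transcripts (of Srsf1, Srsf3, Srsf5, Srsf7, Srsf10 and Srsf11) at 24 h, at 48 h or in the mean (0% of 2132 transcripts called in each, limma, and 0 members at an unadjusted p under 0.05). The poison-exon transcript of Srsf3 (ENSMUST00000037776.15) held 6.26% of its gene's reads, with a difference of -0.02 ± 1.31 percentage points between siLarp1 and siCtl in the mean of both times. Only 16 of the 88 reads on this transcript held sequence of the poison exon, so these values do not measure inclusion of the exon.

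Tails were next compared between isoforms of 1 gene within the same library. Of 11 member transcripts tested against the most-read transcript of their gene, 1 passed, beside 1.66% of 1148 transcripts (limma). This was the poison-exon transcript of Srsf3, whose median tail was 0.45 ± 0.10 longer on the log2 scale (adjusted p = 0.0123). Its medians were 131, 106 and 146 nt in siCtl and 137, 122 and 96.8 nt in siLarp1 at 24 h, on 3 to 21 reads per library. At 48 h they were 205 and 122 nt in siCtl and 139 and 105 nt in siLarp1. The coding transcript had 91.0 to 105 nt. The difference lost its call without siLarp1 library 21 at 24 h (0.43, adjusted p = 0.102), without siCtl library 24 at 48 h (0.36, adjusted p = 0.22) and without siLarp1 library 24 at 48 h (0.38, adjusted p = 0.131). Only 16 of the 88 reads on this transcript held poison-exon sequence. They had a median tail of 210 nt and a mapping quality of at least 10 in all 16. The other 72, none of which reached that quality, had a median of 121 nt. Among the 11, the coding transcript ENSMUST00000097844.8 of Srsf10 had an estimate of the same size, 0.45 ± 0.20, with an adjusted p of 0.37.

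Since most reads on this transcript did not hold its distinguishing exon, reads were also sorted by the sequence they hold. A read was counted when at least 50 of its aligned bases lay within the span, but outside the exons, of its gene's most-read transcript, that is, in sequence that this transcript splices out. This measure was chosen after the data had been seen. It found 102 such reads in 8 of the 10 genes. None were found in Srsf6 (390 reads) or Srsf10 (199 reads), which allows up to 0.769% and 1.51% of all their reads (3 counts of the total). Reads that start too late to reach such sequence are in that total, so the share among reads that reach it could be higher. Of 4 members with enough reads holding spliced-out sequence for a test within libraries, 2 passed, beside 4.98% of 502 genes (limma). Of the 25 genes called, 22 had longer tails on the reads with spliced-out sequence. Both members were among the 22.

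In Srsf7, 12 of 829 reads held spliced-out sequence. Of these, 6 were on the poison-exon transcript ENSMUST00000234503.1 and 6 on retained-intron transcripts that keep the 874-base stretch around that exon (chr17:80204388-80205261). Their tails were 150 to 387 nt long with a median of 303 nt, and the other Srsf7 reads had a median of 100.0 nt. In siCtl 19, 21 and 22 the medians were 287 nt (4 reads), 387 nt (1 read) and 260 nt (1 read), beside 89.6, 94.2 and 98.6 nt for the other reads. In siLarp1 19 and 22 they were 264 nt (2 reads) and 379 nt (1 read), beside 109 and 101 nt. At 48 h such reads occurred in siLarp1 24 (223 nt, 1 read) and siLarp1 25 (303 nt, 2 reads), beside 112 nt for the other reads in both libraries. The longer tail was seen in 7 of 7 libraries with such reads, in both treatments. The log2 difference was 1.54 ± 0.16, a 2.91-fold longer tail, with an adjusted p of 5.0e-08 (limma). Tails of at least 200 nt were found on 10 of the 12 reads and on 8.94% of the others. On the same nonsense-mediated decay transcript, the 22 reads without the exon had a median tail of 93.8 nt.

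In Srsf3, 21 of 1405 reads held spliced-out sequence, 16 on the poison-exon transcript and 5 on retained-intron transcripts. Their tails ran from 34.6 to 308 nt with a median of 224 nt, beside 100.1 nt for the other Srsf3 reads. The 16 poison-exon reads had a median of 210 nt, and all 5 retained-intron reads had tails over 200 nt. By library, the medians of these reads were 124 and 205 nt in siCtl 19 and 22, on 4 reads each. They were 218, 226 and 174 nt in siLarp1 19, 21 and 22, on 1 or 2 reads each. At 48 h they were 182 and 253 nt in siCtl 24 and 25 and 231 nt in siLarp1 24, on 2 or 3 reads each. The other reads had medians of 94.5 to 105 nt in these libraries, so the longer tail was seen in 8 of 8. The log2 difference was 0.97 ± 0.15, a 1.96-fold longer tail, with an adjusted p of 2.69e-05 (limma). Tails of at least 200 nt were found on 14 of the 21 reads and on 7.66% of the others.

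The reads with spliced-out sequence reach far towards the 5′ end. Against only those other reads that start at least as far 5′ as the shortest of them, with medians of 99.4 nt (1132 Srsf3 reads) and 99.7 nt (735 Srsf7 reads), the log2 differences were 1.00 ± 0.16 for Srsf3 and 1.51 ± 0.17 for Srsf7. The adjusted p were 3.05e-05 and 1.04e-07 (limma). This limit kept 1132 of the 1384 other Srsf3 reads and 735 of the 817 other Srsf7 reads, so the 5′ reach was matched only loosely. Among reads with a mapping quality of at least 10 the log2 differences were 0.99 ± 0.17 and 1.56 ± 0.25. The number of such reads was too small to compare siLarp1 with siCtl. In Srsf3 they were 8 in siCtl and 5 in siLarp1 at 24 h, and 5 and 3 at 48 h. In Srsf7 they were 6 and 3 at 24 h, and 0 and 3 at 48 h.

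In the other members the sequence counted was of several kinds. In Srsf5, an exon-inclusion factor, 41 of 297 reads qualified, but 37 of these were on a coding transcript with a longer 5′-most exon (ENSMUST00000110356.2, 126 bases) and had a median tail of 126 nt. The 4 reads that kept its 1229-base intron had tails of 69.1 to 345 nt with a median of 229 nt. The log2 difference over all 41 was 0.26 ± 0.18 (adjusted p = 0.558, limma). In Srsf11, 12 of 13 reads held sequence of the 5′-most exon of another coding transcript (ENSMUST00000072875.14). The remaining read was on the nonsense-mediated decay transcript ENSMUST00000126716.8, in an exon that holds a stop codon. It had a tail of 27.5 nt and a mapping quality of 1. The log2 difference over all 13 was -0.47 ± 0.31 (adjusted p = 0.556, limma). Srsf2 had 7 reads with a 104-base exon of a nonsense-mediated decay transcript (ENSMUST00000136914.7), with tails of 52.5 to 358 nt and a median of 142 nt beside 120.5 nt for its other reads. These 7 reads had no mapping quality of 10 or more. Tra2b had 3 reads with its poison exon, of 127, 141 and 203 nt, all from siCtl at 24 h, beside 101 nt. Srsf9 had 4 such reads (median 138 nt beside 114 nt), and Srsf1 had 1, of 330 nt. None of these 4 genes had enough such reads for the test.

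**Figure D4:**
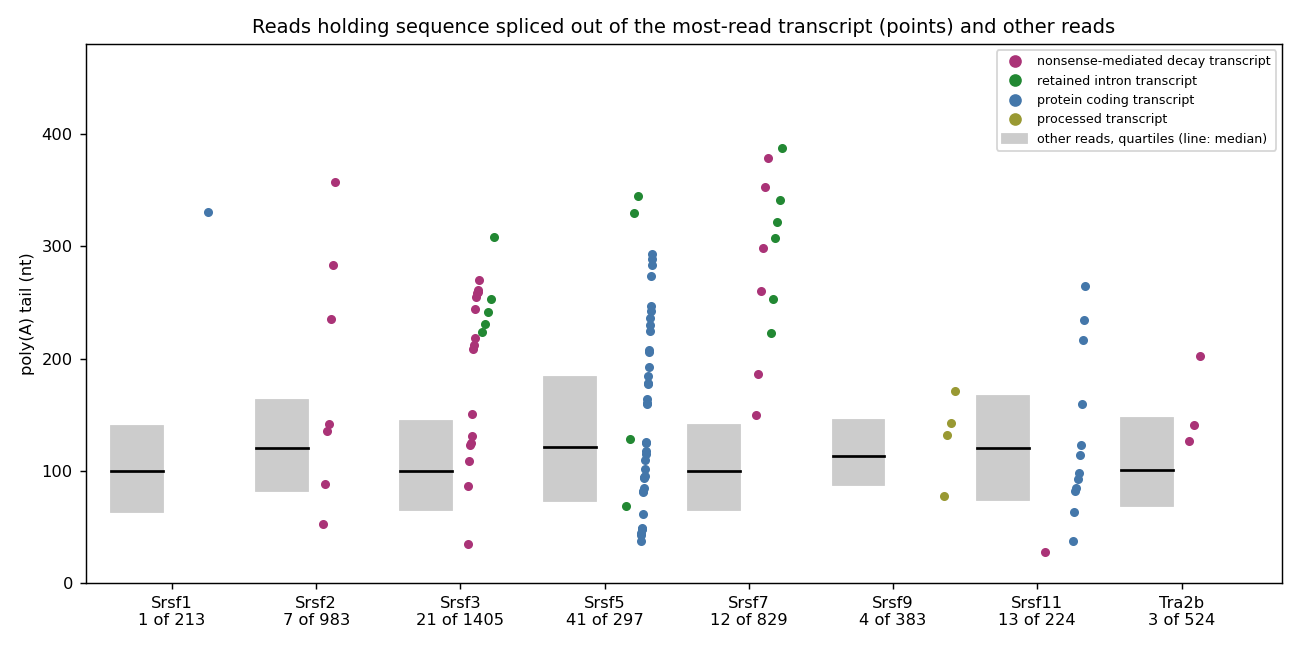
Poly(A) tails in nt (vertical axis) of single reads that hold at least 50 bases spliced out of the most-read transcript (points, coloured by the annotation of the transcript they aligned to) in 8 SR genes. Grey boxes are the quartiles and black lines the medians of all other reads of the gene, and the numbers under each gene are such reads and all reads. All 12 Srsf7 points lie above the box and 14 of 21 Srsf3 points lie at or above 200 nt, while the Srsf5 coding points spread around the box.

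Alignment ends gave 23 3′ end sites in the 10 genes, each with at least 30 reads and 5% of the gene's reads. Of the 10 genes, 8 had more than 1 site, against 30.6% of the 1398 genes with at least 199 reads, the number of the least-read member. All 23 sites lay in the 3′ UTR of the last exon. AATAAA was found in the 30 bases before 15 of the 23 sites (65.2%) and ATTAAA alone before 7 (30.4%), on the strand of the transcript. Among all 6005 sites of 5109 genes these shares were 66.1% and 15.4%. The Srsf9 site, printed above with no capitals, held neither hexamer, as did 18.4% of all sites. The most-used sites of Srsf3, Tra2b, Srsf6 and Srsf1 lay 1276, 1328, 1911 and 2262 bases before the annotated transcript ends, and those of Srsf2, Srsf5, Srsf7, Srsf9, Srsf10 and Srsf11 lay within 13 bases of them.

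Tails at the sites of 1 gene were compared within libraries. None of 12 member sites differed from the most-used site of their gene, beside 6.33% of 758 sites called (limma), and 2 had an unadjusted p under 0.05, as did 20.2% of all sites. The 3 Srsf6 sites, at 453, 591 and 2364 bases after the stop codon, had median tails of 128, 129 and 128 nt. The Tra2b site at 394 bases after the stop codon had a median of 86.6 nt and the most-used site at 979 bases had 103 nt, a within-library log2 difference of -0.31 ± 0.14 (adjusted p = 0.191, limma). In Srsf10, which can end in either of a pair of alternative last exons, the site of the most-used last exon had a median of 126 nt (106 reads) and the other, used by 17.1% of reads, had 81.2 nt (34 reads). The latter was not tested, for lack of reads in some groups.

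Site usage did not pass the test for any of 20 member sites at 24 h, at 48 h or in the mean (0% of 1501 sites called in each, limma), with 1, 0 and 1 members at an unadjusted p under 0.05, beside 4.4%, 5.4% and 6.53% of all sites. The Tra2b site at 394 bases was used by 23.2, 31.1 and 20.6% of Tra2b reads in siCtl and 12.1, 22.2 and 11.4% in siLarp1 at 24 h. At 48 h the shares were 25 and 15.6% in siCtl and 12.1 and 9.68% in siLarp1. The 24 h groups overlapped and the 48 h groups did not, and the mean difference was -8.77 ± 3.61 percentage points (adjusted p = 0.75, limma).

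**Figure D5:**
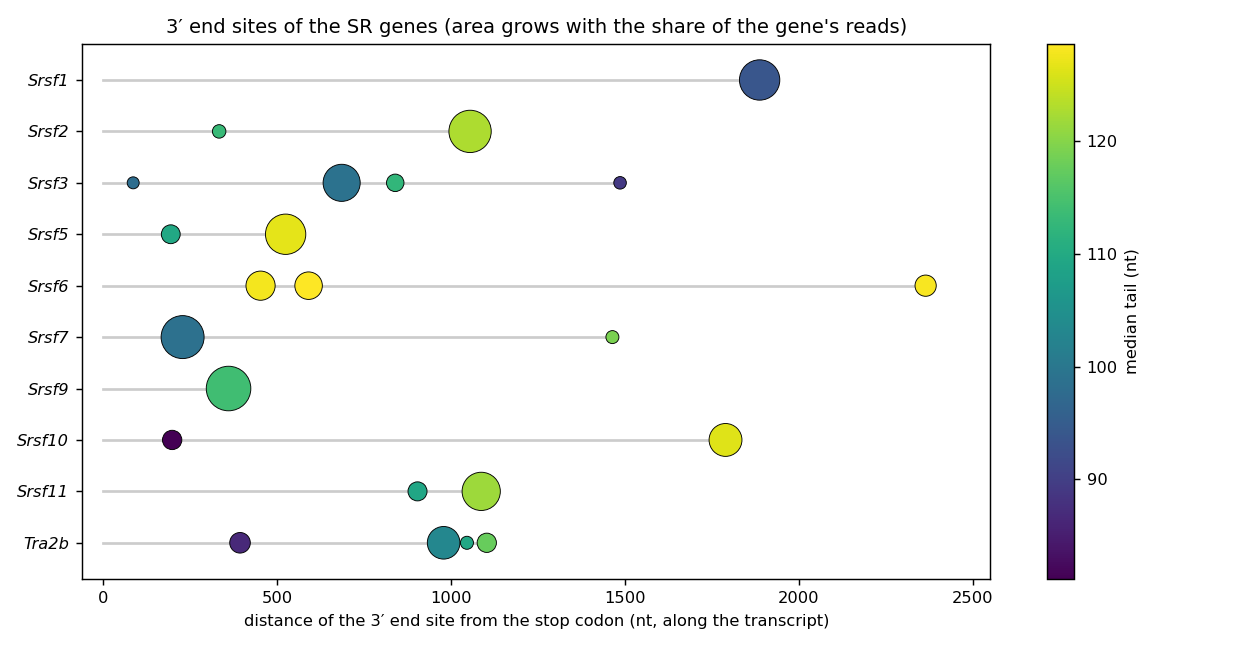
3′ end sites of the SR genes by distance from the stop codon along the transcript (horizontal axis, nt). The area of a circle grows with the percent of the gene's reads that end there, and its colour is the median tail in nt. Srsf6 has 3 sites of nearly equal colour, and Srsf3 and Tra2b have 4 sites each.

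Other genes of the pathway were described from lists. Of 16 SR-related proteins, such as Srrm1, Srrm2 and Son, 14 had enough reads for the test of level and none passed in the mean of both times (4 at an unadjusted p under 0.05, beside 6.18% of all genes, limma). None of 8 SR kinases (0 unadjusted), 4 import and export factors (0 unadjusted) or 6 tested of 10 nonsense-mediated decay factors (1 unadjusted) passed. The median log2 differences of these lists were 0.07, -0.04, 0.12 and -0.07, beside 0.10 for the 10 SR genes and 0.04 over all genes. Of these lists, the test of reads with spliced-out sequence reached 5 SR-related proteins, none of which passed. It also reached 11 hnRNP genes, of which 1 passed, and 52 ribosomal protein genes, of which 13 passed, 12 of them with longer tails.

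The 45 pairwise Pearson r of their RPM over 10 libraries had a median of 0.34 and ran from -0.58 to 0.76, and those of their median tails had a median of 0.13. The libraries share depth and pool within groups, so these are descriptions. Among 957 other genes with at least 300 reads, the summed RPM of the 10 genes was tracked most closely by Hspd1 (r = 0.91), Hnrnpd (0.89) and Eloc (0.89). The pooled median tail was tracked most closely by Akr1b3 (r = 0.94), Eif3e (0.90) and Mrpl11 (0.90).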

How the data were processed

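Poly(A) RNA of 10 libraries was sequenced directly. The authors called bases with Guppy, sorted barcodes with Deeplexicon, aligned reads with Minimap2 (2.20, per the submitters' processing notes) to GENCODE transcripts of mm10, and estimated tails with Nanopolish. The deposited table holds 1 line per alignment, with the tail length in nt, alignment positions, a mapping quality score and a barcode confidence as a fraction. It has no counts. How the library numbers relate to the labelled replicates was not stated.

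Alignments to mRNA with the quality tag PASS were kept, without mitochondrial transcripts and pseudogenes. Of 6929 alignments to the 10 genes, 81.4% were PASS, and 45 reads had more than 1 alignment. Reads were tallied per gene, transcript and library. Limma 3.58.1 in R was fitted to all 10 libraries as 4 groups: voom for levels (5858 genes), and weighted fits for tail shares, log2 medians and usage (at least 30 reads, with every group represented by 2 or more libraries). P-values were Benjamini-Hochberg adjusted over all features. Differences within libraries (isoforms, sites, spliced-out sequence with at least 10 such reads in at least 4 libraries) were tested against 0. Positions were placed on mm10 with GENCODE vM21, where the transcripts of 193 Srsf1 reads had no structure. End sites were windows of 20 nt to each side. All 10 members and their transcripts with at least 30 reads were described. Members and lists were chosen with earlier results of these data known. Tests were run on simulated data. For the level and the tail share, changes were placed only in genes with at least 300 reads and tested in the mean of both times. Srsf5, Srsf10 and Srsf11 had fewer reads than that. For the level, 76.0% of 2-fold changes were recovered over 5620 genes, with 12 false calls among 5420 unchanged genes. For the share of 30 to 90 nt tails, 18.0% of differences of 10 points and 79.0% of 20 points were recovered over 5431 genes, in genes with at least 300 reads. For spliced-out sequence, 76.0% of log2 differences of 1 were recovered over 502 genes. For the share and for spliced-out sequence, reads were drawn without added spread between libraries, so recovery in the real data may be lower.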

Additional observations from a re-analysis of the deposited data

How the results depend on the processing

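The number of SR genes, transcripts or sites called (9 results) was recomputed 148 times, and 142 of these stayed within 1.5 times the reported count. Each of the 6 exceptions concerned tail differences within a gene. The count of isoforms was 0 in place of 1 with a mapping quality of at least 10 and with a read minimum of 100, where only 2 transcripts could be tested, and 0 to 1 without each library in turn. The count for spliced-out sequence was 1 to 2 without each library, and 1 without siCtl library 19 at 24 h, where Srsf7 kept 8 such reads, under the minimum of 10. Over the alternatives that gave a value, all chosen after seeing the data, the log2 difference ran from 0.90 to 1.11 in Srsf3 (14 alternatives) and 1.49 to 1.59 in Srsf7 (13), with adjusted p (limma) of at most 0.00028 and 2.44e-05. The poison-exon transcript of Srsf3 kept its call in 13 of 16. Levels, tail classes, median tails and usage called 0 members under every alternative run.

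With the library number as a replicate block the counts of members stayed at 0, and at 1 for isoforms (Srsf3, 0.40, adjusted p = 0.0155, limma). Deviations of same-numbered libraries correlated at 0.044, 0.252 and 0.229 at 24 h and 0.104 at 48 h. With 2 libraries per group, both 48 h numbers must give the same value. These correlations were all above 0 and do not settle whether the numbers pair the samples. The main fits left the pairing out. Calls over all genes moved more. For the level in the mean of both times they were 9, and 3 to 30 under the alternatives (30 with the block). For tails under 30 nt they were 2, and 0 to 199 (199 without siCtl library 24 at 48 h), and at 48 h 1, and 0 to 203 (203 without siLarp1 library 25). For isoform tails they were 19, and 7 to 38. Of 1525 single values, 146 changed sign, all of them differences that had not passed the test. Small read numbers limit all SR results: 8 to 303 reads per gene and library.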
